A study of Mus musculus with 24 samples.

Results

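The transcripts of 9 genes tied to type 2 innate lymphoid cells (ILC2s), Il4, Il5, Il13, Il1rl1, Il17rb, Klrg1, Areg, Hpgds and Hs3st1, were followed across lymphoid populations sorted from the mouse small intestine. The genes were taken by their symbols from a count table of 55487 genes. Each symbol matched 1 gene, and all 9 were among the 21286 genes that passed the filter on low counts.

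ILC2s are tissue lymphocytes of barrier organs that respond to the epithelial alarmins IL-33 and IL-25 by secreting IL-5 and IL-13, and they depend on the transcription factor GATA3. IL-33 is sensed through the receptor chain encoded by Il1rl1 (ST2) and IL-25 through a receptor that contains the product of Il17rb. NR1D1 and NR1D2 (REV-ERBα and REV-ERBβ) are nuclear receptors of the circadian clock that repress transcription.

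RNA was sequenced from 4 populations of the lamina propria, labelled ILC1, NKp46, CCR6 and DN, in 2 genotypes with 3 libraries per group, 24 in all, from mice 8 to 12 weeks of age. Mice labelled DKO carried floxed Nr1d1 and Nr1d2 with Vav1-Cre, which is active throughout blood cells and so is not limited to ILCs. Mice labelled WT were littermates that carried the floxed alleles and served as controls. No population was labelled as ILC2, and the labels do not spell out DN. They also leave unsaid whether the libraries of a group are from different animals, so the p-values below reflect spread among libraries, which may be technical.

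The libraries held 12763228 to 84395154 counts. Library 2 of WT ILC1 stood apart, with the fewest counts and 11.1% of them in ribosomal RNA genes, against at most 4.80% in the other libraries, so values of ILC1 comparisons without it are also given. The targeted genes ran against the genotype labels in all 4 populations: counts per 1000000 (CPM) of Nr1d1 were 1.77 to 5.07 times and those of Nr1d2 2.01 to 3.96 times as high in DKO as in WT, without overlap, and the sources used here do not give the deleted exons. WT and DKO therefore stand for libraries that carry these labels. Ncr1, which encodes NKp46, averaged 1614 CPM in WT ILC1, 824 in WT NKp46, 9.87 in WT CCR6 and 55.5 CPM in WT DN, and Ccr6 averaged 1399.6 CPM in WT CCR6 and at most 40.7 CPM in the other WT populations. CPM were scaled between libraries with edgeR's trimmed mean of M values (TMM).

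Il4, Il13 and Il5 lie together in the type 2 cytokine cluster of chromosome 11 (GRCm38, GENCODE M21). Il4 lies on the minus strand at 53602982 to 53618669 and Il13 on the minus strand at 53631324 to 53634702, with 12654 bases between them. Il5 lies on the plus strand at 53720794 to 53725106, a further 86091 bases on. The other 6 genes lie elsewhere: Il1rl1 on chromosome 1 (40429570 to 40465415), Areg (91139599 to 91148432) and Hs3st1 (39613935 to 39755475) on chromosome 5, Hpgds (65117293 to 65144908) and Klrg1 (122270596 to 122282882) on chromosome 6, and Il17rb on chromosome 14 (29996135 to 30008896). Exons of Il5 share 417 bases with the antisense gene Gm12214, which had 0 counts in every library. Exons of Il17rb share 141 bases with Actr8 on the opposite strand, and the sources used here do not give the strand setting of the counting, so reads in those bases cannot be told apart.

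The start regions of the clustered cytokine genes and of the IL-33 receptor gene are shown as a selection, and GATA3 recognises motifs of the GATA type. Their transcripts were highest in DN (below). So were those of Il17rb, Areg and Hs3st1 in WT, whose regions are not printed. RefSeq (GRCm38.p6) gave windows of 300 bases, from 250 before to 50 after a start site, for 8 of the 9 genes, and Klrg1 had no entry. The windows were searched on both strands for AGATAA or TGATAA, motifs of the GATA type. They were also searched for TAGGTCA, bound by nuclear receptors of the ROR and REV-ERB type, and for the core AGGTCA that this motif contains. The last motifs searched were the E-box CACGTG and the D-box TTATGTAA. Each line below runs 5′ to 3′ in the direction of the gene, from 250 bases before to 30 bases after the start site, with matches in capitals.
Il4, chr11:53618636-53618915, minus strand: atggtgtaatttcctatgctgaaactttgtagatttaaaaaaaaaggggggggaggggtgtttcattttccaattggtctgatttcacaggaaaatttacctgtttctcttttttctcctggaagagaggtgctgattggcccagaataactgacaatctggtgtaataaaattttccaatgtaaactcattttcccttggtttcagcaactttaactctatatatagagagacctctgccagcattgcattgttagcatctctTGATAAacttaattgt
Il13, chr11:53634673-53634952, minus strand: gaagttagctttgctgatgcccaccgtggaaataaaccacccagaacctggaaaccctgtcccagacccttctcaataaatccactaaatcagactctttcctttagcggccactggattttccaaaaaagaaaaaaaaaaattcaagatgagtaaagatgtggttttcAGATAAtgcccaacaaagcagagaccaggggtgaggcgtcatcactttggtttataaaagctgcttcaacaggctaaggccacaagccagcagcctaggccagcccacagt
Il5, chr11:53720544-53720823, plus strand: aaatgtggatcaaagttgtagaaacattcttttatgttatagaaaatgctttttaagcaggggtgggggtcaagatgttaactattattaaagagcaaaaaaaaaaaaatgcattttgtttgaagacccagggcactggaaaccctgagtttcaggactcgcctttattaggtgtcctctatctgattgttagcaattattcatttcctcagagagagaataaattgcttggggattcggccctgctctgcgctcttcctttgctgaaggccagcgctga
Il1rl1, chr1:40429320-40429599, plus strand: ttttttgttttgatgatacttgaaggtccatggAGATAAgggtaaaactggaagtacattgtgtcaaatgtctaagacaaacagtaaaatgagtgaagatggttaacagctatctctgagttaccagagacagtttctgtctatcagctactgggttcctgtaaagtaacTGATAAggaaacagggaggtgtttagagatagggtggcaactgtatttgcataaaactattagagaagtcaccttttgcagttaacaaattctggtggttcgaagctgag

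Counted from the start site, a GATA-type match stood at +15 in this Il4 window, at -81 in that of Il13, and at -217 and -80 in that of Il1rl1. Of 32851 windows of this length, 18.6% held AGATAA or TGATAA. The Il5 window held none of the searched motifs, and neither did those of Il17rb, Areg, Hpgds and Hs3st1. Another RefSeq window of Il1rl1 held AGGTCA at -185 and AGATAA at -103, and another of Il4 held no match. Neither of these is printed. Whether GATA3 acts at the matches was not tested. The Hs3st1 window begins from a start site 110844 bases inside the 5′ end of the GENCODE gene. AGGTCA was present in 16.3% of all windows, TAGGTCA in 2.61%, CACGTG in 7.15% and TTATGTAA in 0.938%.

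In WT, 8 of the 9 transcripts had their highest mean in DN, and the exception was Hpgds, which was about as high in CCR6. The 9 genes summed to 366 to 661 CPM in the 3 WT DN libraries, 25.6 to 60.6 in WT ILC1, 41.5 to 49.8 in WT NKp46 and 31.6 to 55.4 CPM in WT CCR6. In DKO they summed to 119 to 216 CPM in DN, 14.4 to 24.4 in ILC1, 32.4 to 38.2 in NKp46 and 11.4 to 12.5 CPM in CCR6. The DKO DN libraries thus lay below every WT DN library and above every library of the other populations. Most of the DN sums was Hs3st1, which averaged 225 CPM in WT DN and 58.7 in DKO DN, and Il17rb, at 122 and 55.1 CPM. Neither was called between genotypes in DN (below). In bulk samples such as these, fewer cells of a type and less RNA per cell cannot be told apart.

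**Figure D1:**
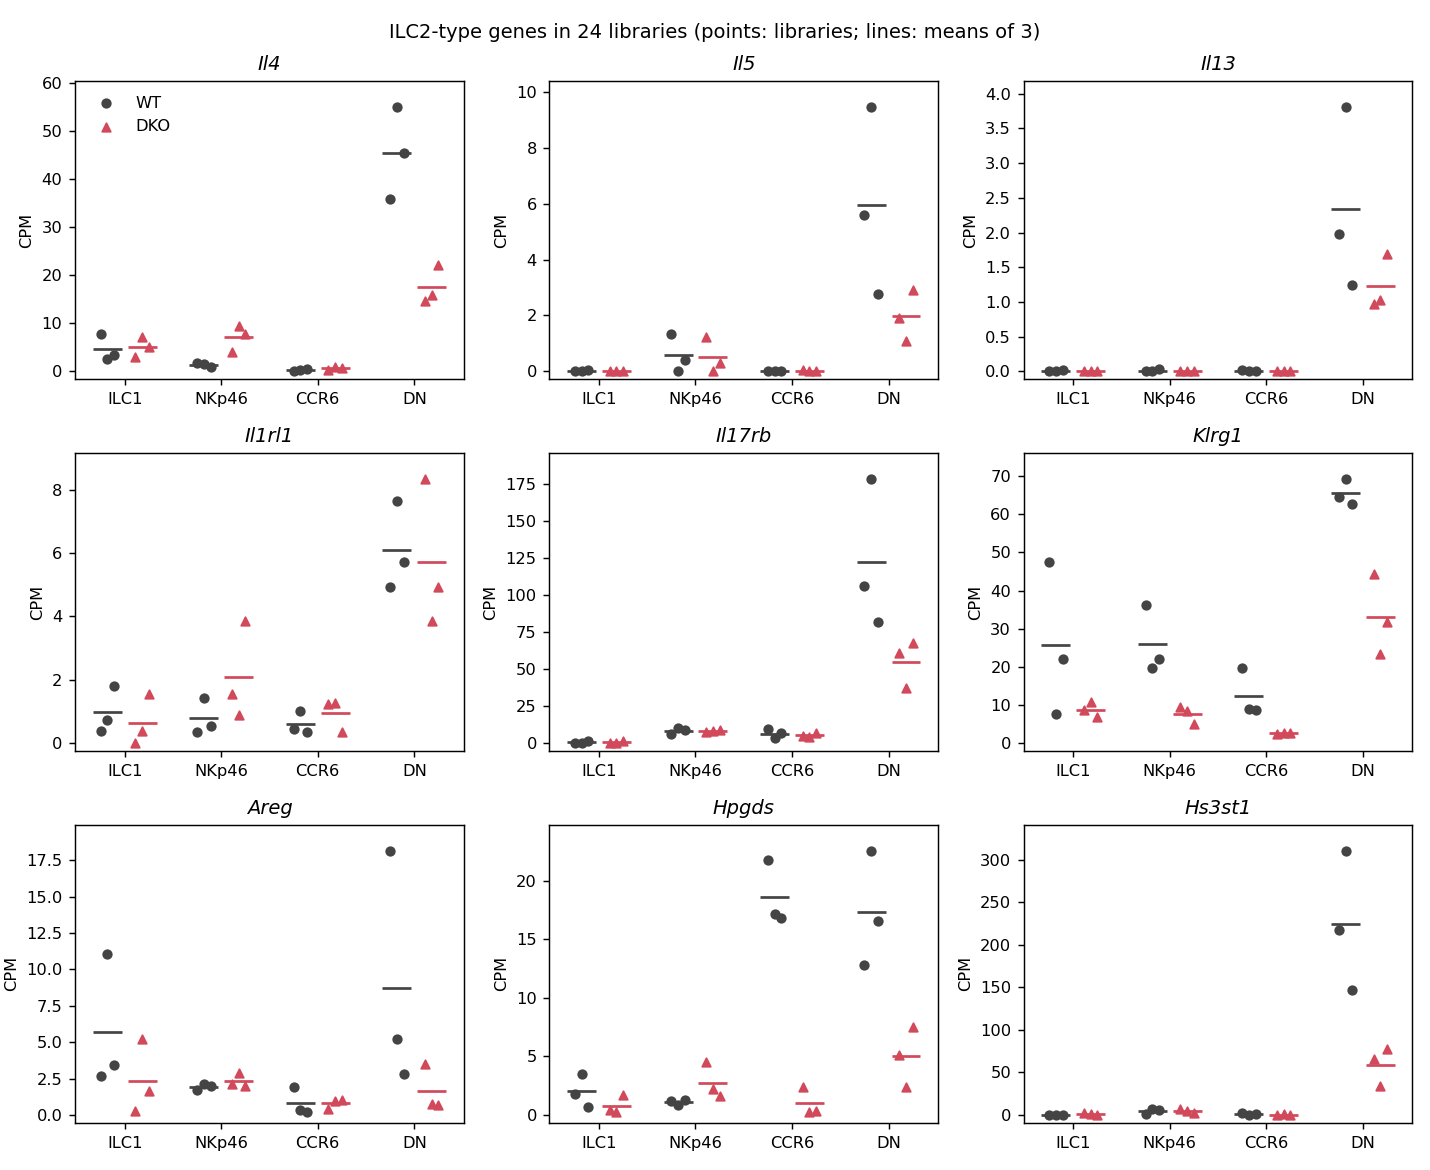
CPM of each of the 9 genes (vertical axes, a scale per gene) in the 4 populations, with 1 point per library (circles WT, triangles DKO) and lines for the means of 3. In WT the DN mean is highest for 8 genes, and Hpgds reaches 16.8 to 21.7 CPM in CCR6 and 12.8 to 22.5 CPM in DN.

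Levels of different genes were compared per kilobase of exon. In WT DN, Hs3st1 was the most abundant of the 9 at 101 ± 36.8 CPM per kb (mean ± SD, n = 3), followed by Klrg1 at 46.3 ± 2.38, Il4 at 37.1 ± 7.77 and Il17rb at 32.9 ± 13.5 CPM per kb. The lowest were Il1rl1 at 0.885 ± 0.201 and Il13 at 1.94 ± 1.09 CPM per kb. Klrg1 led the 9 genes in the other WT populations, at 18.4 in NKp46, 18.2 in ILC1 and 8.80 CPM per kb in CCR6.

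**Figure D2:**
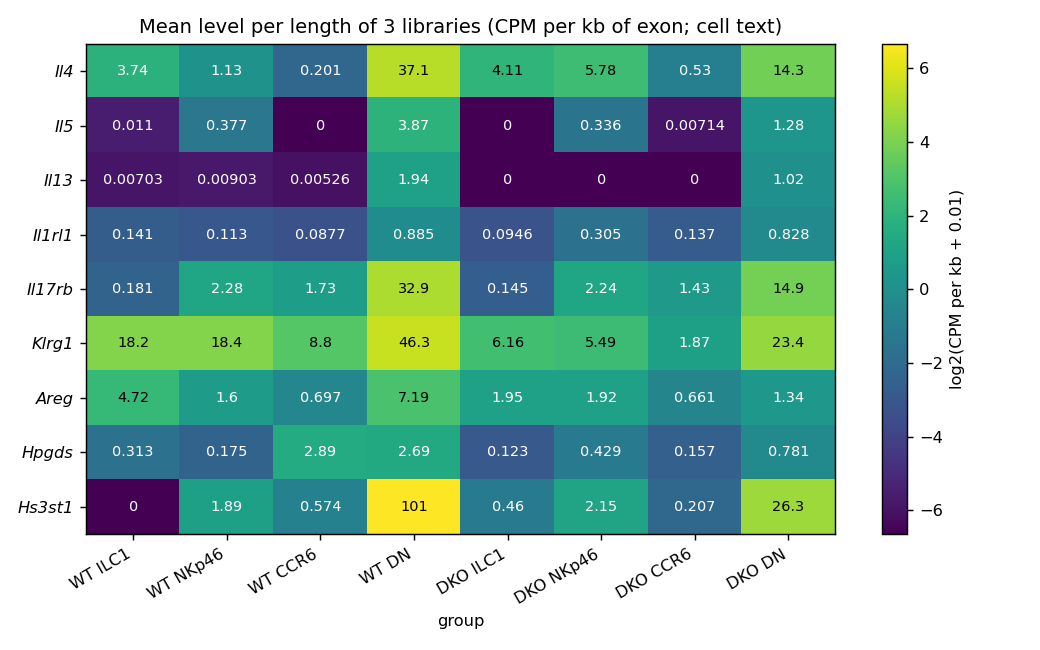
Mean level per exon length (CPM per kb, 3 libraries per group) of each gene (rows) in the 8 groups (columns), coloured on a log2 scale. WT DN holds the highest value of its row for 8 genes, from 0.885 for Il1rl1 to 101 for Hs3st1, and Hpgds is highest in WT CCR6 at 2.89.

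Populations and genotypes were compared with edgeR's quasi-likelihood test fitted over all 24 libraries, with Benjamini-Hochberg adjustment over 21286 genes. Genes with an adjusted p below 0.05 are referred to as called. In WT, DN against NKp46 called 5 of the 9, all higher in DN (Il4, Il13, Il17rb, Hpgds and Hs3st1), where 2.25% of all tested genes were called higher. Il13 passed the filter on low counts only through DN libraries. Its calls as higher in DN, here and below, therefore follow from the filter and add no support. DN libraries lay above NKp46 libraries without overlap for 9 of the 9, against 12.7% of all tested genes. Il13 is among these 9, and its lack of overlap likewise follows from the filter. Without WT NKp46 library 2 the number called was 3, and without WT ILC1 library 2 it was 6, through Klrg1 (adjusted p = 0.0251).

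DN against CCR6 called 8 of the 9, all but Hpgds and all higher in DN, where 3.89% of all tested genes were called higher. DN against ILC1 called 6, all higher in DN (Il4, Il5, Il13, Il17rb, Hpgds and Hs3st1), where the share of all tested genes was 4.73%, and the number was 6 without WT ILC1 library 2. The median log2 difference of the 9 genes was 3.85 against NKp46, 4.26 against CCR6 and 3.29 against ILC1, and that of all tested genes was -0.011, -0.016 and 0.0080. Each median is the value of a gene with counts in both groups. Genes at or near 0 in the other population, Il13 in each comparison, rank above that value and so raise the median. The 3 comparisons share the DN libraries.

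The other WT populations differed in fewer of the 9 genes or in both directions. ILC1 against NKp46 called Il17rb and Hs3st1, both lower in ILC1, as were 5.60% of all tested genes. CCR6 against NKp46 called Hpgds higher in CCR6 (all tested genes, 2.82%) and Il4 and Il5 lower (3.41%). ILC1 against CCR6 called Il4 and Areg higher in ILC1 (9.33%) and Il17rb, Hpgds and Hs3st1 lower (9.99%). Without WT ILC1 library 2, Il4 was also called between ILC1 and NKp46 (log2 difference 2.01, adjusted p = 0.0402), and the call of Areg between ILC1 and CCR6 was lost (log2 difference 1.86, adjusted p = 0.219).

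Without WT ILC1 library 2, DN exceeded ILC1 by 3.02 for Il4, 3.80 for Hpgds, 1.5 for Areg and 2.46 for Il1rl1 on the log2 scale. Areg and Il1rl1 were not called in that comparison with or without the library. DKO against WT in ILC1 was then -0.58 for Hpgds (-1.25 with it), -0.36 for Areg (-1.26 with it) and -2.00 for Klrg1 (-1.57 with it), and of these Klrg1 was called.

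Between genotypes, genes of the 9 were called in NKp46 and CCR6. In CCR6, Klrg1 and Hpgds fell in DKO, where 2.04% of all tested genes were called lower. In NKp46, Klrg1 fell and Il4 rose, where 2.17% of all tested genes were called lower and 1.99% higher. None was called in ILC1, where edgeR called 1.06% of all tested genes. There 2 of the 9 had an unadjusted p under 0.05, a threshold passed by 13.5% of all tested genes. DESeq2 called 2 of the 9 and 752 genes in all, where edgeR called 225. The 4 comparisons share no libraries.

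None of the 9 was called in DN either, where 2.83% of all tested genes were, although 5 had an unadjusted p under 0.05 (12.2% of all tested genes). For 5 of the 9 (Il4, Il17rb, Klrg1, Hpgds and Hs3st1) every DKO DN library lay below every WT DN library, as for 12.8% of all tested genes. The median log2 difference was -1.37 over the 9 genes and -0.044 over all tested genes. Limma voom called those 5 genes, and edgeR fitted to the DN libraries alone called 4 of them (not Il17rb), all lower in DKO. Both called more genes of every kind in DN, 1072 and 1330 in all, where edgeR over 24 libraries called 602.

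**Figure D3:**
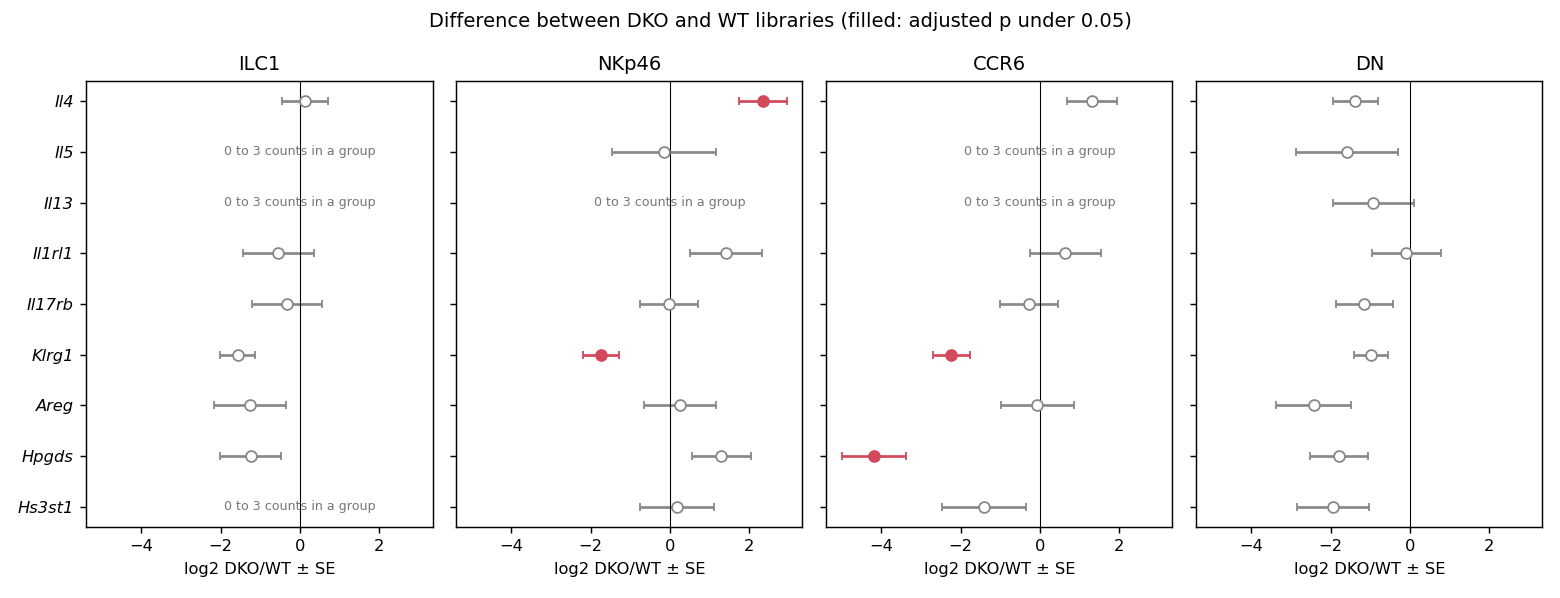
Log2 difference of DKO against WT (horizontal axis, ± SE) of each gene in each population, from edgeR over 24 libraries, with filled points for an adjusted p below 0.05. Filled are Il4 and Klrg1 in NKp46 and Klrg1 and Hpgds in CCR6; in DN the differences run from -2.42 for Areg to -0.10 for Il1rl1 and none is filled. Where a group held 0 to 3 counts, text replaces the point.

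Il4, a cytokine that drives type 2 T cell responses and class switching to IgE, was the most abundant cytokine gene of the 9 per kilobase in WT DN. The WT DN libraries held 35.9, 55.0 and 45.5 CPM, WT ILC1 7.87, 2.57 and 3.33, WT NKp46 1.72, 1.48 and 0.979 and WT CCR6 0, 0.318 and 0.422 CPM. The populations stood in that order without overlap between neighbours. DN exceeded ILC1 by 3.29 ± 0.61 on the log2 scale (± SE, adjusted p = 0.00113) and NKp46 by 5.02 ± 0.67 (adjusted p = 8.09e-05). ILC1 and NKp46 were not called apart (1.73 ± 0.60, adjusted p = 0.0669), and CCR6 was lower than NKp46 (-2.42 ± 0.64, adjusted p = 0.0220).

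In DKO, Il4 rose in NKp46, while in DN its libraries lay below those of WT. The DKO NKp46 libraries held 4.13, 9.38 and 7.75 CPM, each above every WT NKp46 library, and the log2 difference was 2.34 ± 0.60 (n = 3 and 3, edgeR adjusted p = 0.0274). The call was lost with limma voom (adjusted p = 0.0567) and without WT NKp46 library 1, 2 or 3 or DKO NKp46 library 2 or 3 (adjusted p up to 0.137), with log2 differences of 2.06 to 2.61 over all alternatives. The DKO DN libraries held 14.6, 15.8 and 22.2 CPM, each below every WT DN library, a difference that was not called (-1.37 ± 0.57, adjusted p = 0.289).

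The genotype difference of Il4 in DN minus that in NKp46 was -3.72 ± 0.83 on the log2 scale (edgeR adjusted p = 0.0458). In this contrast, set with earlier results of these data known, 0.352% of all tested genes were called lower. Il4 was called in 11 of 31 alternatives, with an adjusted p of up to 0.163, reached without WT DN library 2, and a log2 value of -3.98 to -3.43. The test for unequal genotype differences over all 4 populations did not call Il4 (adjusted p = 0.0743). In ILC1 the DKO libraries held 2.96, 7.14 and 5.02 CPM and overlapped with WT (0.13 ± 0.57, adjusted p = 0.958). In CCR6 they held 0.329, 0.864 and 0.756 CPM, also with overlap (1.32 ± 0.64, adjusted p = 0.383).

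Il5, the growth and survival factor of eosinophils, had most of its counts in DN. The WT DN libraries held 5.61, 9.44 and 2.79 CPM and the DKO DN libraries 1.89, 1.1 and 2.91 CPM. The genotypes overlapped in DN and were not called apart (-1.59 ± 1.28, adjusted p = 0.752). NKp46 was uneven, with 1.35, 0 and 0.392 CPM in WT and 1.23, 0 and 0.315 CPM in DKO, so that 1 library of each genotype had 0 counts. WT ILC1 held 2 counts over 3 libraries, DKO CCR6 2, and WT CCR6 and DKO ILC1 had 0. In WT, DN exceeded CCR6 at least 430.5-fold, set against 3 counts over the CCR6 group (adjusted p = 0.00265), and ILC1 by a ratio of 248 (95% counting interval 68.4 to 2050.1), an interval that covers counting error only (adjusted p = 0.0120). DN and NKp46 were not called apart (3.36 ± 1.39, adjusted p = 0.275).

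Il13, which drives mucus secretion and acts on epithelium and smooth muscle, was counted almost wholly in DN. WT DN libraries held 89, 155 and 48 counts (1.98, 3.80 and 1.24 CPM) and the DKO DN libraries 44, 42 and 114 counts (0.969, 1.03 and 1.69 CPM). The remaining 18 libraries held 3 counts together, 1 each in WT ILC1, WT NKp46 and WT CCR6. Il13 therefore passed the filter on low counts only through DN libraries, and its calls as higher in DN add no separate support. In WT, DN exceeded NKp46 by a ratio of 263 (95% counting interval 46.8 to 10409) with an adjusted p of 0.00721. The ratio over CCR6 was 506 (95% counting interval 90.1 to 20059) with an adjusted p of 0.00189, and that over ILC1 was 194 (95% counting interval 34.6 to 7699) with an adjusted p of 0.00448. The genotypes overlapped in DN (-0.92 ± 1.02, adjusted p = 0.852). In DKO, DN exceeded NKp46 at least 35.5-fold (adjusted p = 0.0242), CCR6 at least 69.4-fold and ILC1 at least 50.2-fold, each against 3 counts over the group.

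Areg encodes amphiregulin, a ligand of the epidermal growth factor receptor that ILC2s make in tissue repair. Its CPM were 18.1, 5.25 and 2.84 in WT DN, 2.64, 11.1 and 3.46 in WT ILC1, 1.75, 2.12 and 1.96 in WT NKp46 and 1.96, 0.353 and 0.230 in WT CCR6. DN and ILC1 each had 1 library well above the other two, library 1 in DN and library 2 in ILC1, and their ranges overlapped (0.62 ± 0.90, adjusted p = 0.749). DN was called above CCR6 (3.38 ± 0.99, adjusted p = 0.0443), a call made in 16 of 31 alternatives and lost without WT DN library 1 (log2 difference 2.27, adjusted p = 0.299). The DKO DN libraries held 3.50, 0.736 and 0.653 CPM, which overlapped with WT (-2.42 ± 0.95, adjusted p = 0.247). That difference was -1.32 without WT DN library 1 and -3.63 without DKO DN library 1, and was called in neither case. In DKO the highest mean was not in DN: DKO ILC1 averaged 2.36 ± 2.55, DKO NKp46 2.33 ± 0.467 and DKO DN 1.63 ± 1.62 CPM, and these were not called apart.

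Il1rl1 encodes the IL-33 receptor chain ST2. The WT DN libraries held 4.94, 7.63 and 5.73 CPM and the DKO DN libraries 8.33, 3.85 and 4.94 CPM. The genotypes interleaved, and the difference of -0.10 ± 0.87 (adjusted p = 0.992) was the smallest of the 9 in DN. The other WT populations were lower without overlap, at 0.387 to 1.80 CPM in ILC1, 0.368 to 1.42 in NKp46 and 0.345 to 1.01 CPM in CCR6. DN was called above CCR6 (3.32 ± 0.95, adjusted p = 0.0405), and the call was lost in 12 of 24 exclusions of 1 library, among them each WT CCR6 and each WT DN library (adjusted p up to 0.190). It was not called above NKp46 (2.95 ± 0.94, adjusted p = 0.112) or ILC1 (2.63 ± 0.94, adjusted p = 0.0950). DKO NKp46 held 1.55, 0.895 and 3.86 CPM against 0.368, 1.42 and 0.555 CPM in WT, with overlap (1.41 ± 0.90, adjusted p = 0.479).

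Il17rb encodes the IL-25 receptor chain, and in WT DN its level per kilobase was 32.9 CPM per kb where that of Il1rl1 was 0.885. The WT DN libraries held 106, 178 and 81.9 CPM and the DKO DN libraries 60.6, 37.1 and 67.5 CPM. Every DKO library lay below every WT library in DN, and the difference was not called (-1.15 ± 0.72, adjusted p = 0.60). The genotypes overlapped elsewhere, at 6.40 to 10.0 CPM in WT and 7.87 to 8.82 in DKO NKp46, 3.27 to 9.29 and 3.87 to 7.21 in CCR6, and 0 to 1.73 and 0 to 1.62 CPM in ILC1. In WT, DN exceeded NKp46 by 3.85 ± 0.80 (adjusted p = 0.00652), CCR6 by 4.26 ± 0.81 (adjusted p = 0.00158) and ILC1 by 7.26 ± 0.96 (adjusted p = 2.15e-05). ILC1 was the lowest population and was called below NKp46 in WT (-3.41 ± 0.85, adjusted p = 0.0104) and in DKO (-3.70 ± 0.84, adjusted p = 0.00956). The overlapping gene Actr8 averaged 146 CPM in WT DN, 102 in DKO DN and 69.5 to 100.4 CPM in the other groups, and its part in the Il17rb counts was not tested.

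Klrg1 encodes an inhibitory receptor for cadherins found on mature ILC2s and on effector T and NK cells, and it was detected in all 24 libraries. Klrg1 stood at 64.6, 69.2 and 62.6 CPM in WT DN, 36.3, 19.6 and 22 in WT NKp46, 47.6, 7.63 and 22 in WT ILC1 and 19.7, 8.99 and 8.68 CPM in WT CCR6. Every DN library was above every other WT library. DN was called above CCR6 (2.40 ± 0.46, adjusted p = 0.00158) and not above NKp46 (1.33 ± 0.44, adjusted p = 0.127) or ILC1 (1.34 ± 0.44, adjusted p = 0.0689). DESeq2 and limma voom called both of the latter, and ILC1 was called lower also without WT ILC1 library 1 (adjusted p = 0.00370). None of the other 23 exclusions of 1 library gave that call, and without WT ILC1 library 2, the lowest of its group, the difference was 0.91 (adjusted p = 0.190).

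Klrg1 was lower in DKO than in WT by the mean in all 4 populations. The DKO libraries held 2.40, 2.74 and 2.79 CPM in CCR6, 9.56, 8.56 and 5.16 in NKp46, 8.57, 10.8 and 6.81 in ILC1 and 44.3, 23.3 and 31.7 CPM in DN. Genotypes did not overlap in CCR6, NKp46 and DN, and in ILC1 WT library 2 lay among the DKO libraries. In CCR6 the difference was -2.23 ± 0.46 (adjusted p = 0.00427), and it was called in 30 of 30 alternatives (adjusted p up to 0.0416). In NKp46 it was -1.74 ± 0.45 (adjusted p = 0.0282), and the call was lost with limma voom, with no filter on low counts, without WT NKp46 library 1 and without DKO NKp46 library 1, 2 or 3 (adjusted p up to 0.152).

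In ILC1 the Klrg1 difference was -1.57 ± 0.45 with all libraries (adjusted p = 0.112) and -2.00 without WT ILC1 library 2 (adjusted p = 0.00608). In DN it was -0.98 ± 0.44 (adjusted p = 0.346). The difference in DN was not called apart from that in NKp46 (0.76 ± 0.62, adjusted p = 0.765), CCR6 (1.25 ± 0.62, adjusted p = 0.787) or ILC1 (0.59 ± 0.62, adjusted p = 0.882).

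Hpgds encodes the haematopoietic prostaglandin D2 synthase, whose product attracts type 2 cells. The WT CCR6 libraries held 21.7, 17.2 and 16.8 CPM and the WT DN libraries 12.8, 22.5 and 16.5 CPM. These ranges overlapped and were not called apart (-0.10 ± 0.71, adjusted p = 0.977). WT NKp46 held 0.883 to 1.27 CPM and WT ILC1 0.686 to 3.54 CPM. CCR6 exceeded NKp46 by 4.04 ± 0.81 (adjusted p = 0.00231), and DN exceeded NKp46 by 3.94 ± 0.81 (adjusted p = 0.00606) and ILC1 by 3.15 ± 0.78 (adjusted p = 0.0136).

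Hpgds in CCR6 had the largest fitted genotype difference of the 9 genes. The DKO CCR6 libraries held 146, 16 and 15 counts (2.40, 0.288 and 0.344 CPM), and the WT CCR6 libraries 1144, 1458 and 1312 counts. Every DKO library was far below every WT library. The log2 difference was -4.18 ± 0.81 (n = 3 and 3, edgeR adjusted p = 0.00236), and it was called in 30 of 30 alternatives, from -5.86 to -3.73. Without DKO CCR6 library 1, the highest of its group, it was -5.86 (adjusted p = 2.81e-04).

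In DN the DKO libraries held 5.16, 2.43 and 7.48 CPM, each below every WT library (-1.78 ± 0.73, adjusted p = 0.283). In NKp46 they held 4.48, 2.18 and 1.61 CPM, each above every WT library, at 1.23, 0.883 and 1.27 CPM (1.30 ± 0.75, adjusted p = 0.417). A single test per gene for unequal genotype differences over the 4 populations gave Hpgds an adjusted p of 0.0478, and 1.37% of all tested genes were called by it. Hpgds was called in 11 of 30 alternatives of that test (adjusted p up to 0.125, without WT NKp46 library 2). The difference in DN was not called apart from that in CCR6 (2.40 ± 1.02, adjusted p = 0.673).

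Hs3st1 encodes a sulfotransferase that modifies heparan sulfate. The WT DN libraries held 217, 310.1 and 147 CPM, WT NKp46 0.704, 6.51 and 5.42 and WT CCR6 2.28, 0.447 and 1.11 CPM, and the WT ILC1 libraries had 0 counts. DN was far above the rest. It exceeded NKp46 by 5.73 ± 1.08 on the log2 scale (adjusted p = 0.00463), CCR6 by 7.48 ± 1.18 (adjusted p = 4.02e-04) and ILC1 at least 6230.0-fold against 3 counts over the group (adjusted p = 4.67e-05). ILC1 was at least 125-fold lower than NKp46 (adjusted p = 0.00943). The DKO DN libraries held 65.6, 33.5 and 77.0 CPM, each below every WT DN library, and the difference was not called (-1.94 ± 0.91, adjusted p = 0.397). The DKO ILC1 libraries held 49, 24 and 12 counts where WT had 0, at least 20.3-fold higher and not called (adjusted p = 0.263). In DKO CCR6, 1 library held 77 counts and the other two held 0.

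In DKO, DN had the highest mean of 8 of the 9 genes. DN against NKp46 called 2, Il13 and Klrg1 (2.09 ± 0.46, adjusted p = 0.0284), both higher in DN, where 0.474% of all tested genes were called higher. The Il13 calls in DKO follow from the filter, as in WT. Without DKO NKp46 library 1, 2 or 3 or DKO DN library 1 or 3 neither was called, and without DKO DN library 2 or WT DN library 2, 1 was. DN against CCR6 called 6 (all but Il1rl1, Areg and Hpgds), all higher in DN, against 1.35% of all tested genes. DN against ILC1 called 6 (all but Il4, Il1rl1 and Areg), all higher in DN, against 4.07%. ILC1 against CCR6 called Il4 and Klrg1 higher in ILC1 (5.99% of all tested genes) and Il17rb lower (5.88%), ILC1 against NKp46 called Il17rb lower (2.30%), and CCR6 against NKp46 called Il4 lower (2.33%).

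Whether DN differed from the other populations in its genotype difference was tested directly, with DN taken as the reference with earlier results of these data known. In DN minus CCR6 none of the 9 was called by edgeR (0.127% of all tested genes), 2 had an unadjusted p under 0.05 (6.50% of all), and DESeq2 called 0 and limma voom 0. In DN minus ILC1 none was called by edgeR (0.343%), 1 had an unadjusted p under 0.05 (8.54% of all), and DESeq2 called 1 and limma voom 0.

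A list of 31 other genes of the ILC2 programme, 30 of them tested, was read beside the 9. In WT, 12 were higher and 0 lower in DN than in NKp46, 8 higher and 3 lower than in CCR6, and 17 higher and 0 lower than in ILC1. Of all tested genes 2.25%, 3.89% and 4.73% were called higher in these comparisons. The median log2 differences were 0.64, 0.57 and 1.16. Gata3, the lineage factor, averaged 1101 ± 152 CPM in WT DN and 431 to 481 CPM in the other WT populations (DN against NKp46 1.35 ± 0.16, adjusted p = 1.83e-05). Il9r, which encodes the receptor of IL-9, averaged 28.7 ± 4.67 CPM in WT DN and at most 0.714 CPM in the others. Ly6a (Sca-1) averaged 151 ± 11.1 CPM in WT DN and 18.6 ± 8.08 CPM in WT NKp46, and Bcl11b, a factor that ILC2s need, 86.3 ± 19.2 and 28.2 ± 3.14 CPM. Neither was high in DN alone: Bcl11b averaged 86.9 ± 34.8 CPM in WT ILC1, about as high as in DN, and Ly6a 103 ± 57.0 CPM in WT CCR6.

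Between genotypes, 1 gene of that list was called higher and 4 lower in DKO DN, 1 and 4 in CCR6, 3 and 4 in NKp46, and 1 and 0 in ILC1. The shares of all tested genes called higher and lower were 1.49% and 1.34% in DN, 1.93% and 2.04% in CCR6, 1.99% and 2.17% in NKp46, and 0.780% and 0.277% in ILC1. In DN, Gata3 fell to 688 ± 122 CPM (-0.68 ± 0.16, adjusted p = 0.0162), Id2, which all ILCs need, differed by -0.77 ± 0.14, while Tcf7, which acts early in ILC development, rose by 0.69 ± 0.12. In CCR6, Ly6a fell from 103 ± 57.0 to 24.8 ± 8.12 CPM (-2.05 ± 0.38, adjusted p = 0.00175). In ILC1 the called gene was Arg1, an arginase gene, which rose from 65.3 ± 10.9 to 134 ± 24.5 CPM. The median of the list in DN was -0.68.

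DN libraries also held the most T cell transcripts. Of 15 T cell markers, 13 were higher in WT DN than in NKp46, 14 than in CCR6 and 11 than in ILC1, and none was lower, beside shares of 2.25%, 3.89% and 4.73% of all tested genes. Cd3e, a chain of the T cell receptor complex, averaged 574 ± 16.8 CPM in WT DN and 12.9 to 82.9 CPM in the other WT populations, and Trdc, the constant region of the delta chain, 274 ± 44.6 against 12.2 to 38.7 CPM. The markers summed to 3713 to 3982 CPM in WT DN, 1423 to 1868 in ILC1, 1015 to 1238 in CCR6 and 867 to 989 CPM in NKp46, and none of the 15 was at 0 in any of these groups. In DKO DN they summed to 3099 to 3363 CPM, with 8 of 15 called lower than in WT (1.34% of all tested genes) and 1, Lat, higher, and Trdc averaged 76.0 ± 11.4 and Cd3e 181 ± 28.9 CPM. The sum includes Lat, and the median log2 difference of the 15 markers in DN was -1.01 (all tested genes -0.044). In DKO CCR6 the sum was 2849.6 to 3005 CPM, with Lat higher at 2151 ± 56.2 CPM against 252 ± 40.2 in WT, and Cd8a lower at 0.0388 ± 0.0197 against 1.83 ± 1.47 CPM. In DKO NKp46, where Il4 rose, the sum was 1162 to 1439.6 CPM, above WT without overlap, with Lat and Trac (1.28 ± 0.30, adjusted p = 0.0168) called higher. In DKO ILC1 it was 1285 to 1554 CPM, with Cd3g called lower (-1.13 ± 0.26, adjusted p = 0.0367). The genotype difference in DN minus that in NKp46 was called for 4 of the 15 as lower and 0 as higher, beside 0.352% and 0.146% of all tested genes. The part of these transcripts in the levels of the 9 genes was not tested.

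Regulatory T cells can express Areg, Il1rl1, Klrg1 and Gata3, and their 6 markers were read too. They summed to 262 to 295 CPM in WT DN and 161 to 190.3 in DKO DN, 188 to 216 and 139 to 159 in CCR6, 237 to 276 and 190.5 to 208 in NKp46, and 327 to 401 and 252 to 319 CPM in ILC1, with the sum lower in DKO without overlap in each. The single markers did not all fall: their median log2 difference was -0.60 in DN, -0.28 in ILC1, -0.040 in NKp46 and -0.016 in CCR6. Foxp3, the defining marker, had no counts in DKO ILC1 and DKO NKp46. Ctla4, an inhibitory receptor gene, fell in DN (-2.03 ± 0.37, adjusted p = 0.00166) and in CCR6 (-3.06 ± 0.39, adjusted p = 1.76e-05), where Ikzf2 fell too. The sum of 9 epithelial markers ran the other way in DN, at 35.5 to 48.1 CPM for DKO against 5.31 to 8.19 for WT, mostly through the keratin gene Krt18 (3.23 ± 0.63, adjusted p = 0.00370). This was not particular to DN: in CCR6 the sum was 18.6 to 37.3 CPM for DKO against 5.83 to 10.0 for WT. In NKp46 and ILC1 the median sum was higher in DKO, with overlap. The part of either list in the results of the 9 genes was not tested.

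**Figure D4:**
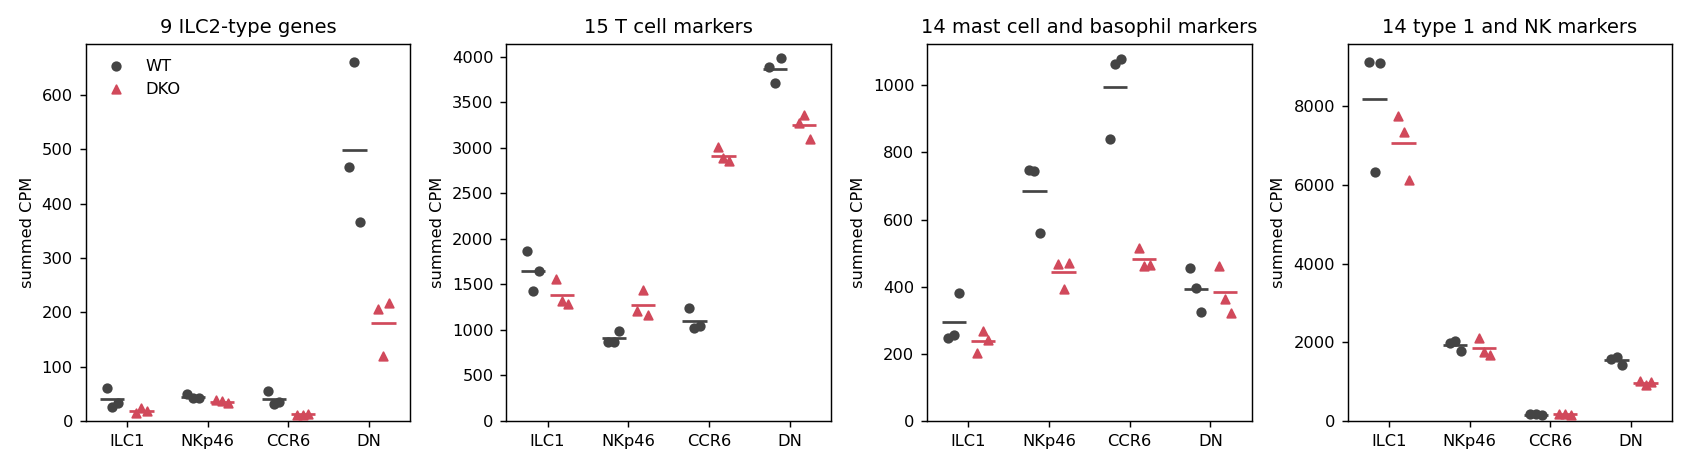
Summed CPM per library of the 9 genes and of the T cell, mast cell and basophil, and type 1 and NK cell markers (vertical axes, a scale per panel), with circles for WT, triangles for DKO and lines for the means of 3. In DN the 9 genes, mostly Hs3st1 and Il17rb, sum to 366 to 661 CPM in WT and 119 to 216 in DKO. The T cell markers sum to 3713 to 3982 and 3099 to 3363 CPM, a sum that includes Lat, called higher in DKO DN, while 8 of the 15 markers were called lower.

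Mast cells and basophils can also express Il4, Il13, Il1rl1 and Hpgds. Of their 14 markers, Tpsb2, Mcpt4, Cma1 and Ms4a2 had 0 counts in WT DN, and 6, Fcer1a among them, had 0 counts in WT CCR6. Fcer1a, the alpha chain of the IgE receptor, averaged 0.178 CPM in WT DN. The list summed to 841 to 1079 CPM in WT CCR6, 463 to 514 in DKO CCR6, 325 to 455 in WT DN and 323 to 461 CPM in DKO DN. Most of it was Kit, which ILC3s also express and which fell from 985 ± 133 to 474 ± 30 CPM in DKO CCR6 (adjusted p = 0.00127). The mast cell protease gene Cpa3 averaged 4.86 ± 1.96 CPM in WT CCR6 and 1.79 ± 0.374 in DKO CCR6 (adjusted p = 0.185), and 14.1 ± 4.06 in WT DN and 5.08 ± 0.184 CPM in DKO DN (adjusted p = 0.198). The part of Kit and Cpa3 expressing cells in the Hpgds difference was not tested.

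The sum of 7 eosinophil markers ran the other way to Hpgds in CCR6, mostly through Siglecf. WT CCR6 libraries summed to 0.171 to 2.23 CPM, whereas DKO CCR6 libraries reached 15.1 to 21.4. The list as a whole did not rise. Of the 3 markers tested none was called, and their median log2 difference was -0.74. In WT DN the sum of the 7 was 0.0890 to 1.32 CPM. Type 1 and NK cell markers summed to 6324 to 9137 CPM in WT ILC1, 1779.9 to 2034 in NKp46, 1420.0 to 1629.7 in DN and 155 to 168 CPM in CCR6. ILC3 markers summed to 7274 to 9245 CPM in WT CCR6, 4329.6 to 4969 in NKp46, 3474 to 3648 in DN and 1971 to 3446 CPM in ILC1.

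The profiles of the 9 genes over the 24 libraries were compared by Pearson's r of log2(CPM + 1), as a description over libraries that share groups. The highest values were 0.93 between Il5 and Il13, 0.92 between Il13 and Hs3st1, and 0.90 between Il17rb and Hs3st1, all genes that were high in the DN libraries. Il13 passed the filter on low counts only through DN, so its values restate the DN level and add no separate support. Between Il4 and its neighbour Il13 r was 0.82. The lowest value was 0.13, between Areg and Hpgds.

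The genes outside the 9 with the most similar profiles over the 24 libraries were named for each. They were Gzmk (0.86), Nsg2 (0.86) and Il9r (0.85) for Il4, Lrrc52 (0.96), Mc5r (0.92) and Izumo1r (0.90) for Il5, and Mc5r (0.95), Arxes2 (0.94) and Rxrg (0.94) for Il13. For the receptors they were Gzmk (0.88), Rxrg (0.88) and Cd8b1 (0.87) for Il1rl1, Ccr8 (0.90), Rxrg (0.90) and Slc7a8 (0.90) for Il17rb, and Nr4a1 (0.83), Exoc3 (0.82) and Sit1 (0.82) for Klrg1. For the rest they were Cd8b1 (0.96), Rxrg (0.96) and Il9r (0.95) for Hs3st1, Fez1 (0.84), Ly6a (0.84) and Pard3 (0.82) for Hpgds, and Runx3 (0.76), Calm3 (0.74) and Tcof1 (0.74) for Areg. Areg had the lowest best match of the 9. Rxrg appeared for 4 of the 9 genes. Il13 was counted almost wholly in DN and Arxes2 only there, so the matches of Il13 restate the DN level.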

How the data were processed

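The authors deposited whole-number read counts per Ensembl gene for 24 libraries, not normalized, as the values show. Per the labels, libraries were made with a low-input SMARTer kit, and no molecular identifiers are named. The submitters' processing notes name STAR 2.7.9a, featureCounts 2.0.3, Salmon 1.5.2 and mm10 without roles, and the strand setting and annotation are not stated in the sources used here. Of 55774 rows, those that repeated 168 gene identifiers with equal counts were used once, which left 55487 genes.

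Counts were filtered with filterByExpr, scaled by TMM and fitted with 1 mean per group and robust quasi-likelihood over all 24 libraries (edgeR 4.0.16, R 4.3.3, 16 residual degrees of freedom), after the script was tested on simulated data. Standard errors are the log2 difference over the square root of F. Folds against a group at 0 use a floor of 3 counts over the group, and with 1 to 3 counts a ratio with a 95% interval is given. The alternatives were DESeq2 1.42.0, limma voom (limma 3.58.1), RLE size factors, no filter, only the groups compared, the replicate number as a block, and each library left out. The exclusions cover all 24 libraries, also those outside the groups compared. Exon lengths are from GENCODE M21, which held 55227 of the identifiers. Total counts of 12763228 to 84395154 per library set the counting precision, and PCR copies are not separate molecules.

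The 9 genes are named throughout, with Nr1d1, up to 4 genes per marker list and comparison by smallest adjusted p, defining markers at 0, and the 3 genes with the most similar profile. Ncr1, Ccr6 and Actr8 were named for the sort labels and the exon overlap. The 9 genes, the lists and DN as the reference of the genotype contrasts were chosen with earlier results of these data known. Of 15 lists, not all are described.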

Additional observations from a re-analysis of the deposited data

Results flagged for a closer look

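The genotype difference of Il4 was not the same in DN and NKp46 by a test of that difference, with a value of -3.72 on the log2 scale (edgeR adjusted p = 0.0458). DN was taken as the reference of that test with earlier results of these data known. Il4 averaged 1.39 ± 0.376 CPM in WT and 7.09 ± 2.69 CPM in DKO NKp46, and 45.5 ± 9.53 and 17.5 ± 4.09 CPM in WT and DKO DN, with 3 of 3 DKO libraries above WT in the first and 3 of 3 below in the second. The call held in 11 of 31 alternatives, and a single test of any difference over the 4 populations did not call Il4 (adjusted p = 0.0743).

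The genotype difference of Hpgds was unequal over the 4 populations by a single test of any difference among them (edgeR adjusted p = 0.0478). It was -4.18 ± 0.81 in CCR6, -1.78 ± 0.73 in DN, -1.25 ± 0.76 in ILC1 and 1.30 ± 0.75 in NKp46 (log2 ± SE), and in ILC1 it was -0.58 without WT library 2. The call held in 11 of 30 alternatives.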

How the results depend on the processing

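Of 40 gene differences called by edgeR, 838 of 960 values with 1 library left out and 252 of 275 values under the other settings were still called in the same direction, 122 and 23 kept the direction only, and none reversed. The 46 that were not called are from DKO against WT and from WT populations only. Of these, 31 of 1104 values with 1 library left out and 7 of 295 others reversed, and 12 and 29 were called. Every library was left out for every difference. For a pair of groups, most exclusions thus removed a library outside the pair and left the compared libraries as they were. The shares therefore do not measure how a call holds when a compared library is lost. The number of the 9 genes called moved as follows, and where no cause is in the setting itself the cause was not tested. The number of all genes called moved too. For DKO against WT in DN it was 602 with edgeR, 1072 with limma voom and 1330 with only the groups compared.

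DESeq2 called 2 for DKO against WT in ILC1 (edgeR 0), 2 for DKO ILC1 against NKp46 (edgeR 1), 3 for DKO CCR6 against NKp46 (edgeR 1), 1 for DN minus ILC1 (edgeR 0) and 3 for any difference among populations (edgeR 1). Limma voom called 0 for DKO against WT in NKp46 (edgeR 2), 5 in DN (edgeR 0), 8 for WT and 4 for DKO DN against NKp46 (edgeR 5 and 2), 2 for DKO CCR6 against NKp46 and 2 for any difference. RLE size factors gave 0 for any difference. With no filter on low counts the numbers were 1 for DKO against WT in NKp46, 3 for WT (edgeR 5) and 1 for DKO ILC1 against CCR6 (edgeR 3), 1 for DKO DN and 2 for DKO CCR6 against NKp46, and 0 for DN minus NKp46 (edgeR 1). Fitted to only the groups compared they were 4 for DKO against WT in DN, 1 for WT ILC1 against NKp46, 2 for WT ILC1 against CCR6, 1 for WT CCR6 against NKp46, 4 for DKO DN, 0 for DKO ILC1 and 2 for DKO CCR6 against NKp46, and 2 for DN minus NKp46.

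With each library left out in turn, DKO against WT called 0 genes in DN, 2 to 3 in CCR6, 0 to 1 in ILC1 and 0 to 2 in NKp46. Among WT populations the range was 3 to 6 for DN against NKp46, 6 to 8 for DN against CCR6, 6 to 7 for DN against ILC1, 2 to 3 for ILC1 against NKp46, 3 to 5 for ILC1 against CCR6 and 1 to 3 for CCR6 against NKp46. Among DKO populations it was 0 to 3, 4 to 6, 4 to 8, 1 to 2, 1 to 3 and 1 to 2 in the same order. It was 0 to 1 for DN minus NKp46, 0 for DN minus CCR6, 0 for DN minus ILC1 and 0 to 2 for any difference.

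The replicate numbers were not taken to pair libraries in the main fit, and the labels do not say whether a number marks a shared animal. Deviations from the group means correlated at -0.084 to 0.164 (median 0.069) between libraries with the same number and genotype, over 0.1 in 10 of 36 pairs. Between libraries of a genotype with different numbers the median was -0.037, over 0.1 in 1 of 72 pairs. Libraries with the same number were thus somewhat more alike, and a pairing remains possible. With the replicate number as a block, 2 genes were called for DKO CCR6 against NKp46. With a block within each genotype, 2 were called there and 1 for DKO DN against NKp46. Under the block by number the genotype difference was -0.052 for Il4 in ILC1, 0.28 for Areg in CCR6 and 0.028 for Il1rl1 in DN, each opposite in sign to the value without it.

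Other log2 differences that reversed were not called. Limma voom gave 0.34 for Il5 in NKp46 and 0.58 for Areg in CCR6 (DKO against WT), and Klrg1 in WT ILC1 against NKp46 was 0.012 with DESeq2 and 0.016 with RLE. With each library left out, DKO against WT ran from -0.20 to 0.76 for Il4, -2.21 to 0.36 for Il1rl1 and -8.09 to 1.72 for Il17rb in ILC1. In NKp46 it ran from -1.89 to 1.45 for Il5, -0.19 to 0.12 for Il17rb and -0.32 to 0.65 for Hs3st1. In CCR6 it ran from -0.52 to 1.44 for Areg and -0.59 to 0.089 for Il17rb, and in DN from -0.47 to 0.12 for Il1rl1. Among WT populations the range was -0.45 to 1.5 for Areg in DN against ILC1, -0.33 to 0.085 for Hpgds in DN against CCR6 and -0.77 to 0.43 for Klrg1 in ILC1 against NKp46. For Il1rl1 it was -0.97 to 0.40 in CCR6 against NKp46, -0.19 to 1.28 in ILC1 against CCR6 and -0.57 to 1.09 in ILC1 against NKp46.

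Counts limit what can be said of Il5 in ILC1 and CCR6, Il13 outside DN and Hs3st1 in WT ILC1, where groups held 0 to 3 counts. Libraries of a group of 2, after an exclusion, take their spread from all groups.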

Other observations

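Il33, which encodes the ligand of the receptor chain from Il1rl1, was itself detected. WT CCR6 libraries held 6.88 to 15.2 CPM and DKO CCR6 libraries 2.63 to 4.46 CPM, without overlap and not called by edgeR (-1.76 ± 0.93 log2 ± SE, adjusted p = 0.468). WT ILC1 had 0 counts and DKO ILC1 0.208 to 14 CPM (mean 5.27 CPM, SD 7.55), a rise called by edgeR with most of it in 1 library. NKp46 libraries held 0.653 to 1.60 CPM in WT and 0 counts in DKO, at least 29.7-fold lower against 3 counts over the group (adjusted p = 0.0134).

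Of 14 genes around the type 2 cytokine cluster, 10 were tested, and Csf2, which encodes GM-CSF, rose in DKO CCR6 from 32.1 ± 13.4 to 89.0 ± 25.4 CPM (1.47 ± 0.29, adjusted p = 0.00259). In DN it averaged 183 ± 21.9 CPM in WT and 178 ± 25.7 CPM in DKO. Slc22a5, a carnitine transporter gene, fell in DKO NKp46 from 21.7 ± 3.15 to 8.78 ± 1.47 CPM (adjusted p = 0.00746).

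Ptgs2, the cyclooxygenase gene upstream of prostaglandin D2, rose in DKO CCR6 from 13.4 ± 3.04 to 42.3 ± 6.08 CPM (1.65 ± 0.39, adjusted p = 0.0135), where Hpgds fell, and in DKO ILC1 from 2.34 ± 1.58 to 12.2 ± 1.87 CPM (adjusted p = 0.00362). Ptgs1, the other cyclooxygenase gene, had 242 counts in WT CCR6 (0.114 to 2.79 CPM) and 1 in DKO CCR6, a ratio of 0.00557 (95% counting interval 1.41e-04 to 0.0314) and a fall that was called (adjusted p = 0.00724), and averaged 23 ± 9.62 and 13.7 ± 2.81 CPM in WT and DKO ILC1. Ptpn6, which encodes the phosphatase SHP-1, rose by 0.74 ± 0.13 in NKp46, 1.18 ± 0.13 in CCR6 and 1.36 ± 0.13 in DN. Il4ra, a chain of the receptors for IL-4 and IL-13, rose by 0.72 ± 0.16 in NKp46 (adjusted p = 0.0116), where Il4 also rose.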
